A study of Mus musculus with 2 samples.

Results

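Atf4, Ddit3 (which encodes CHOP), Atf3, Atf5, Cebpg, Trib3, Sesn2 and Ddit4 were read in every deposited cell of blood-forming progenitors from the bone marrow and the spleen of tumour-bearing mice. These 8 genes, of 31053 in the count tables, were chosen by name as the transcription factors ATF4 and CHOP, their dimer partners, and stress genes that act with or after them. The rule that names them uses no measured value, though the members were chosen with earlier results of these data known. Ddit3 stands on 2 Ensembl identifiers with overlapping gene models, and the identifier with more UMIs was used, since the other had 0 UMIs in both libraries. A UMI is a molecular tag that counts an RNA molecule once. Levels are given as CPM, the UMIs of a gene over all UMIs of the summed cells, scaled as is usual for counts-per-million values.

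Both groups were LSK cells, that is, lineage-low or -negative, Sca1-positive and c-Kit-high cells, the gate that holds blood stem and early progenitor cells. They came from C57BL/6 mice of 6 to 8 weeks with an orthotopic liver tumour, made by injecting 750000 Hepa1-6 cells, a mouse hepatoma line, in 25 µl into the left liver lobe. The bone marrow gave 1 library of 10088 cells and 73740963 UMIs (median 5991 per cell), and the spleen gave 1 library of 6546 cells and 85937174 UMIs (median 9978). Neither group was free of tumour, and the number of mice behind a library is not given in the labels. With 1 library per tissue there is no replicate check and no test, and the tissue, the sort and the library cannot be told apart. All intervals are exact 95% intervals for counting error only, and they do not include the spread between mice.

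ATF4 is the main transcription factor of the integrated stress response. When PERK, GCN2, PKR or HRI phosphorylates the initiation factor eIF2 alpha, most translation drops while the Atf4 messenger is translated more, so Atf4 RNA and ATF4 protein need not move together. ATF4 pairs with C/EBP proteins such as C/EBP gamma and switches on genes for amino acid supply and redox balance, and also CHOP, ATF3, ATF5, TRIB3, SESN2 and DDIT4. CHOP is itself a C/EBP family member and under long stress takes part in cell death. In blood stem cells this pathway is known for deciding between recovery and loss of stressed cells. RNA levels read transcription and RNA decay only, and a 3′ count does not allow the level of a gene to be set against that of another.

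The clusters keep the authors' deposited names and are described by their leading genes. HSC-1 was led by Procr in bone marrow and by Hlf and Mecom in spleen, HSC-2 by Elane, HSC-3 by histone genes, LP by Cmah and Dntt in bone marrow and Bcl11b in spleen, and MEP by Car1 and Ermap. DCP was led by cell-cycle genes such as Cdkn3, MP by H2-Eb1 and Cd74 in bone marrow and Cxcl9 in spleen, and MCP by mast cell proteases. The deposited reference label named a dendritic cell, macrophage, T, NK, B, mast cell or basophil in 1.19% of bone marrow cells and 53.9% of spleen cells. In spleen this share ran from 1.12% of MEP and 12.3% of HSC-2 to 99.6% of MP, and in bone marrow MP it was 67.8%. Of the genes behind the sort gate, Kit was at 273 CPM in bone marrow and 225 in spleen, and Ly6a (Sca1) at 70.5 and 80.6 CPM. All 6 stem cell markers were at least 1.5-fold lower in the spleen library. Of 7 dendritic cell markers read, 1 was lower there, Flt3 (281 and 87.8 CPM), and 6 were higher. All 8 dendritic cell markers summed to 942 CPM in bone marrow and 15329 CPM in spleen, with none at 0. For this reason the members' overall ratios are also given without the cells that carry such labels. The cells left are called progenitor-labelled cells (9968 in bone marrow, 3017 in spleen). The name means only that those labels are absent. Cells with other labels stay in, such as 226 bone marrow and 737 spleen MEP cells with an erythroid label. Of dendritic markers read in this set, 3 were at least 1.5-fold higher in spleen, among them Cd74 (26.8 and 156 CPM), and 1 lower. Of T, NK or innate lymphoid markers 2 were higher, among them Trbc1 (0.577 and 46.2 CPM), and 0 lower. Among progenitor-labelled cells Ly6a stood at 70.7 CPM in bone marrow and 34.2 in spleen, and Kit at 273 and 198. Of these progenitor-labelled cells, 881 in spleen and 357 in bone marrow were MEP. MEP cells had a median of 36084 UMIs in spleen and 11230 in bone marrow. Ratios over all progenitor-labelled cells therefore give MEP far more weight in spleen than in bone marrow. The libraries shared 16 cell barcodes.

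Short stretches of 4 promoters are printed here because the results turn on these genes: Atf4 and Ddit3 were lower in spleen in most clusters, while Atf3 and Ddit4 changed direction between clusters. They are RefSeq sequences of build GRCm38.p6, read 5′ to 3′ on the strand of the gene and lying wholly before the RefSeq start of transcription. The RefSeq start used for Atf3 lies inside the annotated gene span, which ends at 191218039 on the minus strand. Its stretch is therefore within the gene as annotated. Capitals mark a match to CCAAT, to ACGTG or to TGATGNAA on either strand. CCAAT is the box bound by NF-Y, ACGTG the core of the element bound by HIF and some bZIP factors, and TGATGNAA most of the composite C/EBP-ATF element through which ATF4 acts.
Atf4 (chr15:80255054-80255123, plus strand): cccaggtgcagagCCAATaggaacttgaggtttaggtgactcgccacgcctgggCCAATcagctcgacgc
Ddit3 (chr10:127290693-127290752, plus strand): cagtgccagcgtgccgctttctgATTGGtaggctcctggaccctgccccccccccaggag
Atf3 (chr1:191183414-191183473, minus strand): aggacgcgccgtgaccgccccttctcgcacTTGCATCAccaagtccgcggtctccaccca
Ddit4 (chr10:59951891-59951960, minus strand): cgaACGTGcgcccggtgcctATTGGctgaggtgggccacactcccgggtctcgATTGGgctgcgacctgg

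All 8 members had a promoter window in the RefSeq table (9 windows, since Atf5 has 2), each covering 250 bases before and 50 after the start. A CCAAT box lay in a window of 7 members, Trib3 being the exception, against 37.4% of all 32851 windows. It began 117 and 76 bases before the start of Atf4, 77 before Ddit3, and 170 and 137 before Ddit4. The longer composite element TGATGNAAT was in no window of a member and in 0.965% of all windows. Its shorter form TGATGNAA contains every such match and was added after the windows had been seen. This form lay 110 bases before the RefSeq start of Atf3, just after the start of Trib3, and in 3.97% of all windows. ACGTG, which also forms part of the motif TGACGTG, was found in the windows of Ddit3 and Ddit4 and in 19.6% of all. The AP-1 site TGANTCA lay in the Ddit3 window, 242 bases before the start, and in 7.81% of all windows. TGACGTCA and TGACGTG were in no member's window, against 1.79% and 2.01% of all. These are matches of letters in a short window, and no match here says nothing about binding elsewhere.

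Atf4 (ENSMUSG00000042406, chromosome 15, 80255184 to 80257541 on mm10) was lower in the spleen library in every cluster that could be compared. Over all cells its level was 190 CPM in bone marrow (95% interval 187 to 193, 14028 UMIs) and 123 CPM in spleen (121 to 126, 10589 UMIs), a ratio of 0.648 (0.632 to 0.664). In bone marrow the clusters read 207 CPM in HSC-1, 181 in HSC-2, 201 in HSC-3, 176 in DCP, 147 in LP, 154 in MEP and 197 in MP. The same clusters of the spleen read 123, 124, 130, 118, 98.0, 135 and 105 CPM. The levels thus spread between 147 and 207 CPM in bone marrow and between 98.0 and 135 in spleen, and no spleen cluster with at least 100 cells in both libraries reached the lowest bone marrow cluster.

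The Atf4 ratio was lowest in MP at 0.532 (0.458 to 0.620) and in HSC-1 at 0.595 (0.560 to 0.631), and nearest to 1 in MEP at 0.873 (0.804 to 0.950). Its interval lay below 1 in 7 of 7 clusters. MCP had only 36 bone marrow cells and was left out of these counts. There Atf4 stood at 225 CPM in bone marrow (166 to 299) and 154 in spleen (135 to 174). When the 15 sums of at least 100 cells were ordered by level, from bone marrow HSC-1 down to spleen LP, the intervals of neighbours overlapped throughout.

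Among progenitor-labelled cells the Atf4 ratio was 0.695 (0.675 to 0.715), and the interval lay below 1 in all 5 clusters with enough cells. Atf4 was also lower in spleen between cells of the same cluster and the same class of reference label, a comparison added after the data had been seen. In HSC-1 cells labelled multipotent and Ctla2a-high, Atf4 was at 208 CPM in 4330 bone marrow cells and 131 CPM in 831 spleen cells, a ratio of 0.631 (0.584 to 0.681). Of 8 such pairs the interval lay below 1 in 7 for Atf4, and erythroid-labelled MEP cells were the exception at 0.934 (0.846 to 1.03).

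The scale of the comparison matters here. Across the 8644 genes whose mean level reached 10 CPM, the median log2 ratio was -0.11. TMM scaling, which sets the bulk of genes equal, moved that median to 0.10 and raised the Atf4 ratio to 0.749. Under TMM the interval for Atf4 lay below 1 in 6 of 7 clusters, and MEP read 1.01 (0.931 to 1.10).

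**Figure D1:**
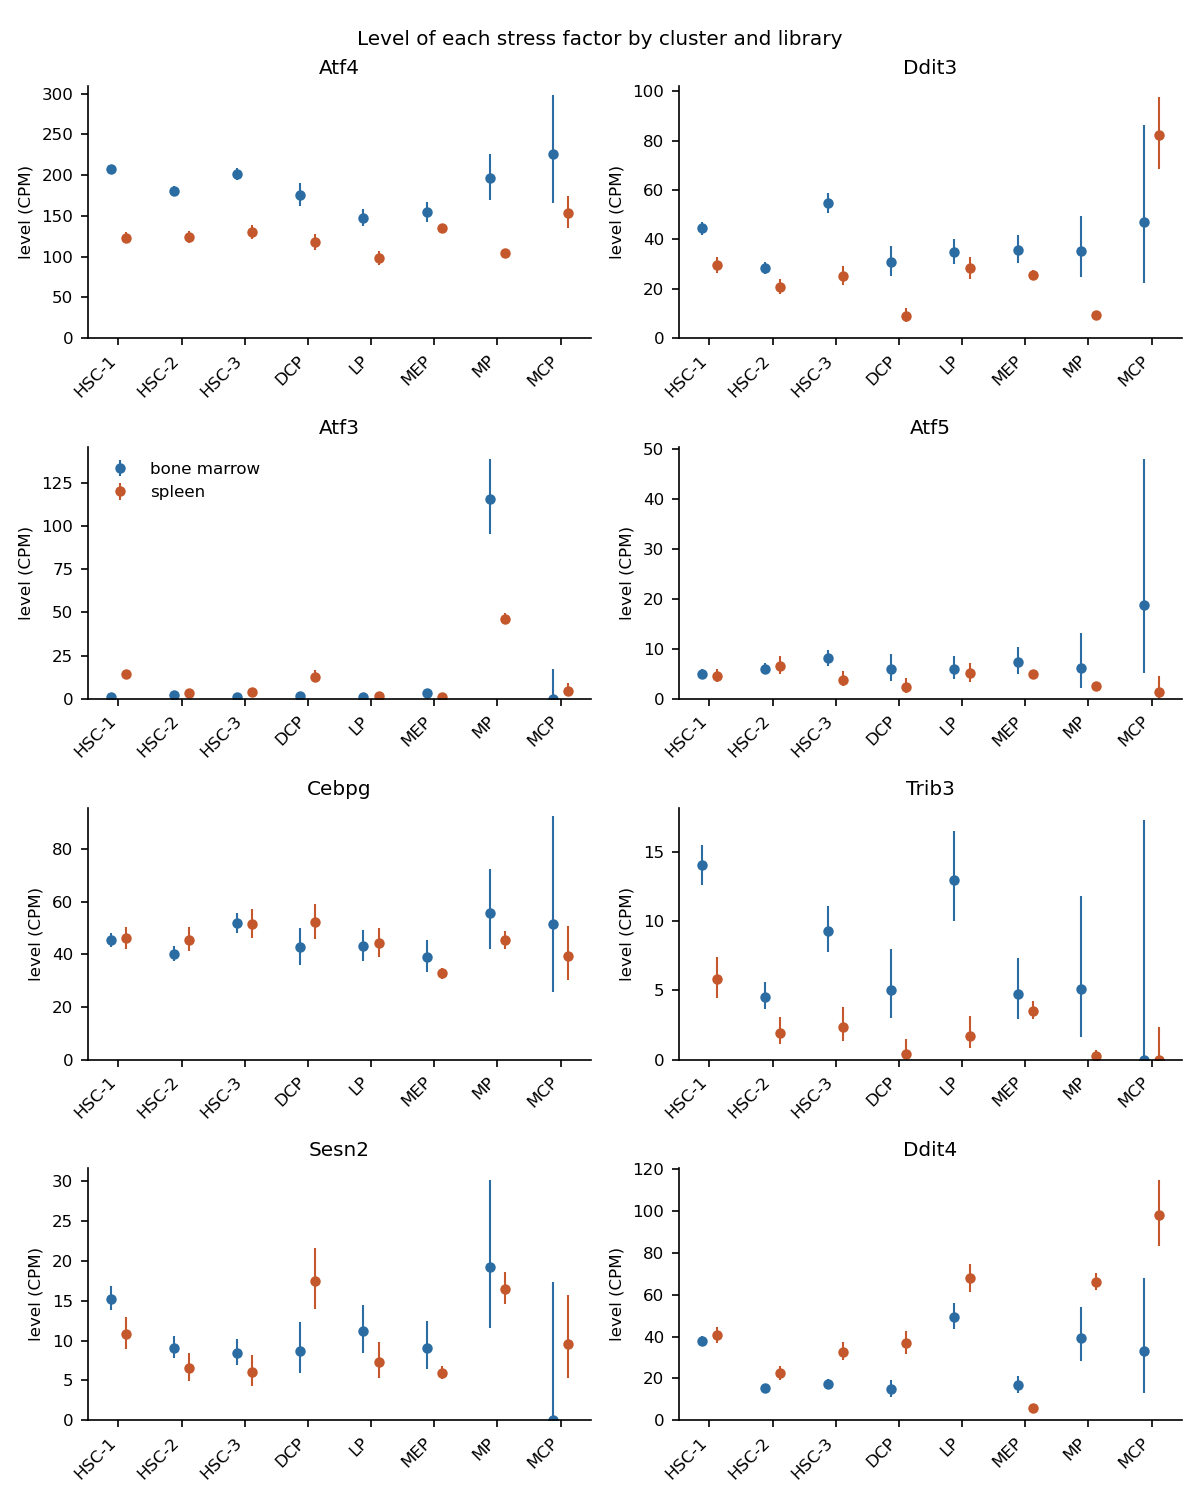
Level of each member in CPM (vertical axis, linear, from 0) in the 8 deposited clusters, bone marrow in blue and spleen in orange; points are summed cells and bars are exact 95% counting intervals. Atf4 lies lower in spleen in each cluster (207 against 123 CPM in HSC-1), Atf3 stands high in MP alone (116 and 46.3 CPM), and Ddit3 and Ddit4 are highest in spleen MCP (82.2 and 98.1 CPM).

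Ddit3 (ENSMUSG00000025408, chromosome 10, 127290774 to 127296288) encodes CHOP, the C/EBP family factor that ATF4 induces. It was also lower in spleen: 40.0 CPM in bone marrow (38.6 to 41.5, 2950 UMIs) and 23.0 in spleen (22.0 to 24.0, 1974 UMIs), a ratio of 0.574 (0.542 to 0.608). In bone marrow its level was 44.5 CPM in HSC-1, 28.3 in HSC-2, 54.8 in HSC-3, 30.9 in DCP, 34.8 in LP, 35.7 in MEP and 35.5 in MP. In spleen the corresponding levels were 29.5, 20.8, 25.3, 9.15, 28.3, 25.7 and 9.18 CPM. HSC-3, the cluster led by histone genes, thus held the highest Ddit3 level of the bone marrow but not of the spleen.

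The Ddit3 interval lay below 1 in 6 of 7 clusters. The largest differences were in MP, with a ratio of 0.259 (0.178 to 0.386), in DCP with 0.297 (0.204 to 0.424) and in HSC-3 with 0.461 (0.388 to 0.545). In LP the interval reached 1, with a ratio of 0.812 (0.653 to 1.01), and under TMM its upper bound fell just under 1 while that of MEP came just over 1 (0.835, 0.701 to 1.00). Spleen MP and DCP are also the clusters where 99.6% and 84.8% of cells had a label of another cell type. Among progenitor-labelled cells the ratio was 0.663 (0.621 to 0.706), with the interval below 1 in 4 of 5 clusters. HSC-3 then read 0.594 (0.490 to 0.717).

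A single sum went against this order. Spleen MCP, whose leading genes are the mast cell proteases Mcpt1, Mcpt4 and Cma1, had the highest Ddit3 level of all at 82.2 CPM (68.6 to 97.6, 129 UMIs), and its interval did not overlap the next, bone marrow HSC-3. These 553 cells were shallow, with a median of 1827 UMIs. Within spleen HSC-1, the 198 cells labelled mast cell or basophil (median 1262.5 UMIs) read 55.9 CPM of Ddit3 (34.6 to 85.5), while 235 cells labelled dendritic or macrophage (median 10186 UMIs) read 15.4 CPM (10.9 to 21.2). Label and depth moved together here, and the part of either was not tested. In bone marrow MCP the 10 UMIs of Ddit3 gave 47.0 CPM, with an interval from 22.5 to 86.4 that overlaps the spleen value.

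Trib3 (ENSMUSG00000032715, chromosome 2, 152337422 to 152344032), a pseudokinase that ATF4 and CHOP induce and that restrains ATF4 in turn, had the lowest ratio of the 8 over all cells. It was at 9.41 CPM in bone marrow (8.72 to 10.1, 694 UMIs) and 2.61 in spleen (2.28 to 2.97, 224 UMIs), a ratio of 0.277 (0.237 to 0.322). Its bone marrow level was highest in HSC-1 (14.0 CPM) and LP (12.9), followed by HSC-3 (9.31). HSC-2, DCP, MEP and MP lay between 4.55 and 5.07 CPM. In spleen it was 5.80 CPM in HSC-1, 1.91 in HSC-2, 2.35 in HSC-3, 1.69 in LP and 3.54 in MEP.

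Trib3 had few or no UMIs in MP, DCP and MCP of the spleen. Only 4 UMIs were found in 1413 MP cells and 2 UMIs in 302 DCP cells, and MCP had 0 UMIs, which allows a level of up to 1.91 CPM. The same spleen MCP cells had the highest Ddit3 level. The Trib3 interval lay below 1 in 6 of 7 clusters, from 0.0510 (0.0101 to 0.237) in MP to 0.420 (0.235 to 0.711) in HSC-2, and in MEP it was 0.743 (0.459 to 1.26). The MP ratio rested on 5 bone marrow and 4 spleen UMIs. Without the 5% of cells with most UMIs it read 0.124 (0.0177 to 1.37), an interval that holds 1. Spleen HSC-1 cells with a dendritic or macrophage label also had 0 Trib3 UMIs, which allows up to 1.22 CPM. Among progenitor-labelled cells the ratio was 0.416 (0.354 to 0.486). In Ctla2a-high HSC-1 cells Trib3 was at 14.1 CPM in bone marrow and 7.58 in spleen, a ratio of 0.537 (0.384 to 0.736).

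The dimer partners of ATF4 and CHOP followed other patterns. Atf3 (ENSMUSG00000026628, chromosome 1, 191170296 to 191218039), a factor that many stresses induce quickly, was at 2.90 CPM in bone marrow (2.53 to 3.32, 214 UMIs) and 12.0 in spleen (11.3 to 12.8, 1034 UMIs), a ratio of 4.15 (3.58 to 4.83). Its RNA was concentrated in MP, the cluster led by antigen presentation genes in bone marrow. MP held 53.3% of the Atf3 UMIs of the bone marrow library on 1.34% of its UMIs, and 69.3% of those of the spleen on 18.0%. Within MP the order was the reverse of that over all cells, with 116 CPM in bone marrow (95.3 to 139) and 46.3 in spleen (43.0 to 49.9), a ratio of 0.401 (0.329 to 0.493).

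Outside MP, Atf3 in bone marrow lay between 0.904 CPM in HSC-1 and 3.10 in MEP, with 0 UMIs in MCP, which allows up to 14.1 CPM. In spleen it was 14.4 CPM in HSC-1 (156 UMIs) and 12.9 in DCP (62 UMIs), with 0.854 to 3.67 CPM in HSC-2, HSC-3, LP and MEP. The HSC-1 ratio of 15.9 (10.3 to 25.5) went with the cells of another label: of its 156 spleen UMIs, 148 lay in the 235 cells labelled dendritic or macrophage, at 60.2 CPM. Progenitor-labelled HSC-1 cells read 0.904 CPM in bone marrow and 0.896 in spleen, a ratio of 0.991 (0.360 to 2.37). Over all progenitor-labelled cells the ratio was 0.801 (0.576 to 1.11), so the overall spleen level was not higher once cells of the other labels, and with them all but 6 spleen MP cells, were left out. Progenitor-labelled HSC-2 cells were an exception, with 1.95 CPM in bone marrow and 3.51 in spleen, a ratio of 1.80 (1.06 to 3.01) from 39 and 27 UMIs. The direction was not stable: over all HSC-2 cells the ratio was 1.67 (0.998 to 2.78), and it turned to 0.529 (0.225 to 1.11) without the 5% of cells with most UMIs and to 0.752 (0.219 to 2.08) in thinned cells. In MEP, where few cells had such labels, Atf3 was at 3.10 CPM in bone marrow and 0.854 in spleen, a ratio of 0.276 (0.137 to 0.582).

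**Figure D2:**
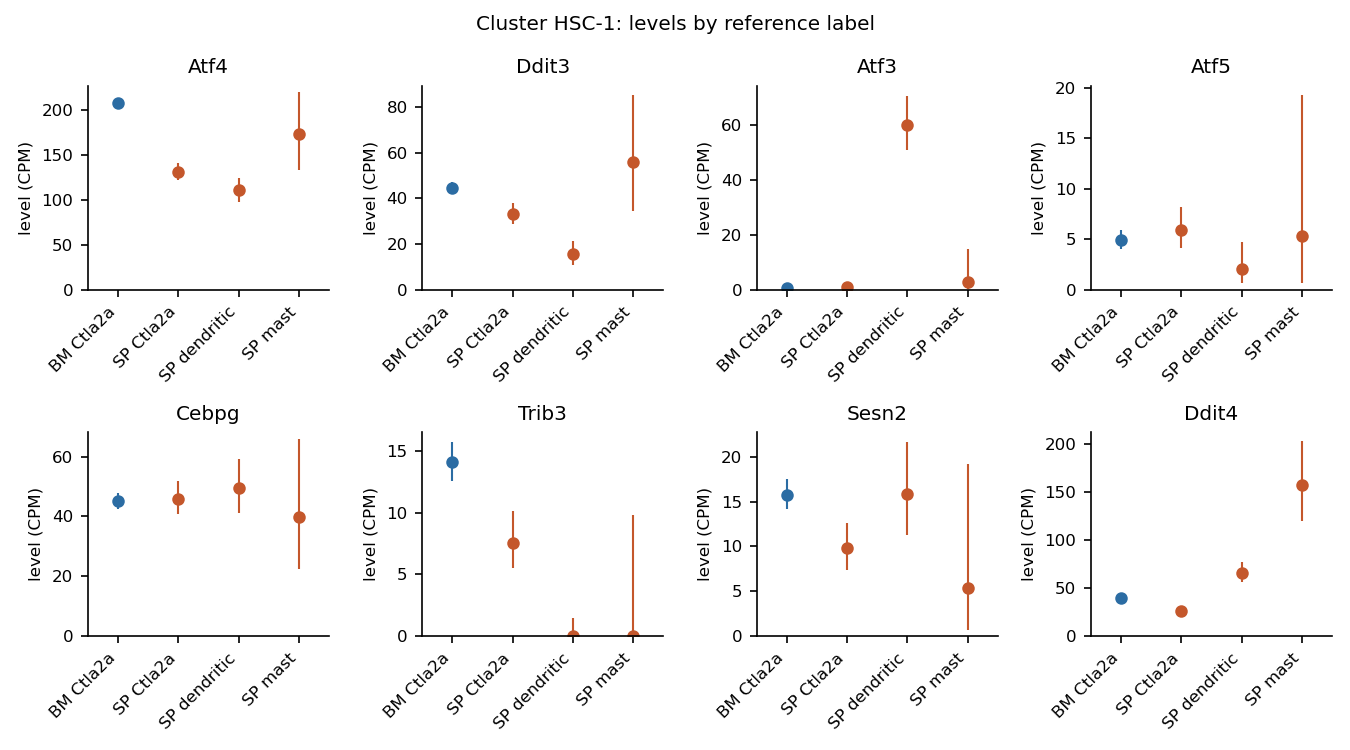
Level in CPM (vertical axis, linear, from 0) of each member in cluster HSC-1 by class of deposited reference label, for bone marrow (BM, blue) and spleen (SP, orange) cells labelled multipotent Ctla2a-high, and spleen cells labelled dendritic or macrophage and mast or basophil; bars are exact 95% counting intervals. Atf3 stands at 60.2 CPM in the dendritic-labelled cells, Ddit4 at 157 CPM in the mast-labelled cells, and Trib3 at 0 in both. The mast-labelled cells were shallow, so their 0 allows a higher Trib3 level than that of the dendritic-labelled cells.

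Atf5 (ENSMUSG00000038539, chromosome 7, 44812256 to 44816658), which in mammals is tied to the mitochondrial unfolded protein response, was sparse. Its level was 6.14 CPM in bone marrow (5.59 to 6.74) and 4.35 in spleen (3.92 to 4.82), a ratio of 0.708 (0.616 to 0.814) that was 0.840 (0.720 to 0.979) among progenitor-labelled cells. Outside MCP, which had 4 UMIs in bone marrow and 2 in spleen, cluster levels ran from 5.01 to 8.10 CPM in bone marrow and from 2.29 to 6.64 in spleen. Of these 7 clusters the interval lay below 1 in HSC-3, at 0.472 (0.295 to 0.729), and in DCP, at 0.388 (0.169 to 0.843), and in none of 5 clusters of progenitor-labelled cells. Nup62, with 3574 UMIs in bone marrow and 3695 in spleen, overlaps Atf5 by 571 bases on the opposite strand, and Il4i1 by 272. The sources used here do not state that the counting used strand, so the Atf5 counts are uncertain to that extent. The same limit holds for Ddit3, which Mars overlaps by 68 bases on the opposite strand. Mars had 1437 UMIs in bone marrow and 2407 in spleen.

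Cebpg (ENSMUSG00000056216, chromosome 7, 35046422 to 35056573), which encodes the preferred partner of ATF4, was the most even of the members. It was at 44.6 CPM in bone marrow (43.1 to 46.2, 3290 UMIs) and 41.5 in spleen (40.2 to 42.9, 3569 UMIs), a ratio of 0.931 (0.888 to 0.976) that became 1.08 under TMM. Among progenitor-labelled cells it was 0.852 (0.805 to 0.901). In bone marrow the 7 clusters lay between 39.1 CPM in MEP and 55.8 in MP, and in spleen between 32.7 CPM in MEP and 52.2 in DCP. Its cluster ratios ran from 0.815 in MP to 1.22 in DCP. The interval was above 1 in HSC-2, at 1.14 (1.01 to 1.28), and below 1 in MEP, at 0.838 (0.710 to 0.994). Under TMM the MEP value was 0.971 (0.823 to 1.15) and DCP rose to 1.59 (1.30 to 1.96). None of the 8 pairs of matched cluster and label had an interval that left out 1, with 45.1 and 46.0 CPM in Ctla2a-high HSC-1 cells.

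**Figure D3:**
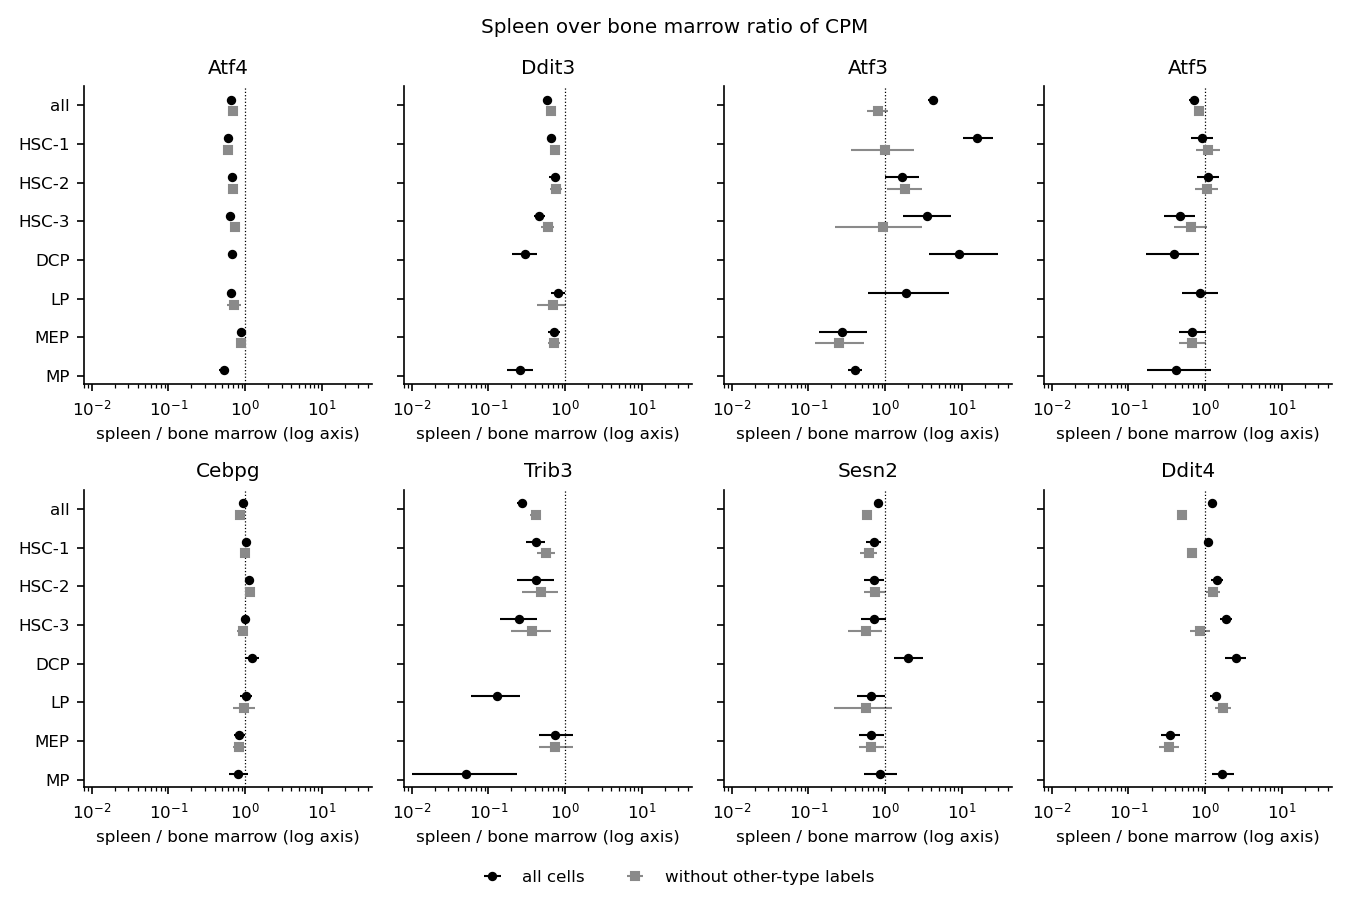
Spleen over bone marrow ratio of CPM (horizontal, log axis; the dotted line is 1) for each member over all cells and in clusters with at least 100 cells in both libraries, in black for all cells and in grey for progenitor-labelled cells; bars are exact 95% intervals, and sums of 3 or fewer UMIs are left out. Atf4 lies left of 1 throughout (0.532 to 0.873), and the black and grey points part for Atf3 and Ddit4. With all clusters summed, Ddit4 reads 1.22 for all cells and 0.500 for progenitor-labelled cells.

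Sestrin 2 and REDD1, the products of Sesn2 and Ddit4, both restrain the growth kinase complex mTORC1 under stress. Sesn2 (ENSMUSG00000028893, chromosome 4, 132492032 to 132510501) was at 11.4 CPM in bone marrow (10.7 to 12.2) and 9.32 in spleen (8.69 to 9.99), a ratio of 0.816 (0.740 to 0.900). Its level in bone marrow was 15.2 CPM in HSC-1 and 19.3 in MP, and 8.48 to 11.1 in the other clusters, leaving out MCP with 0 UMIs. In spleen it was 10.8 CPM in HSC-1, 17.5 in DCP, 16.5 in MP and 9.56 in MCP, and 5.94 to 7.28 elsewhere.

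The Sesn2 interval was below 1 in HSC-1, HSC-2, LP and MEP, with ratios from 0.654 to 0.717, and above 1 in DCP, at 2.01 (1.32 to 3.14). In cells thinned to 3700 UMIs the DCP ratio was 0.997, with a wide interval of 0.386 to 2.52 that holds the unthinned value. Among progenitor-labelled DCP cells, 375 in bone marrow and only 46 in spleen, the Sesn2 ratio was 1.05 (0.359 to 2.56). Among all progenitor-labelled cells the Sesn2 ratio was 0.576 (0.506 to 0.654), and Ctla2a-high HSC-1 cells had 15.8 CPM in bone marrow and 9.77 in spleen. Gm12981, annotated within the Sesn2 span, had 41 and 33 UMIs of its own.

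Ddit4 (ENSMUSG00000020108, chromosome 10, 59949669 to 59951834), which hypoxia, glucocorticoids and ATF4 all induce, lay higher in spleen in some clusters and lower in others. Over all cells it was at 26.7 CPM in bone marrow (25.5 to 27.9, 1969 UMIs) and 32.6 in spleen (31.4 to 33.9, 2804 UMIs), a ratio of 1.22 (1.15 to 1.30). The bone marrow clusters read 38.0 CPM in HSC-1, 15.6 in HSC-2, 17.6 in HSC-3, 14.9 in DCP, 49.5 in LP, 16.7 in MEP and 39.5 in MP. In spleen the same clusters read 40.8, 22.4, 32.8, 37.0, 67.9, 5.79 and 66.1 CPM. Spleen MEP thus held the lowest Ddit4 level of the 15 sums and spleen MCP, at 98.1 CPM (83.2 to 115), the highest.

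The interval of the Ddit4 ratio was above 1 in 5 of 7 clusters, from 1.37 (1.17 to 1.61) in LP to 2.49 (1.82 to 3.45) in DCP. It was below 1 in MEP, at 0.347 (0.262 to 0.464). MEP supplied 36.8% of all spleen UMIs, and without that cluster the overall ratio was 1.77. Without cells of the other labels the ratio over all clusters turned to 0.500 (0.458 to 0.546). MEP made up 881 of the 3017 spleen cells then left and 357 of the 9968 in bone marrow, and the part of this weight was not tested. HSC-1 then read 0.674 (0.576 to 0.785), HSC-2 1.27 (1.04 to 1.55), HSC-3 0.861 (0.637 to 1.15), LP 1.70 (1.33 to 2.17) and MEP 0.337 (0.254 to 0.451). DCP, with 375 bone marrow and only 46 spleen cells left, read 0.940 (0.407 to 1.93). In Ctla2a-high cells of LP the level was 49.9 CPM in bone marrow and 88.9 in spleen, a ratio of 1.78 (1.38 to 2.29), while in Ctla2a-high cells of HSC-1 it was 39.1 and 26.1 CPM, a ratio of 0.668 (0.559 to 0.793). The spleen HSC-1 cells with a mast or basophil label had 157 CPM and those with a dendritic or macrophage label 65.9 CPM.

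Counted by size, a gene was called when its log2 ratio of CPM plus 1 passed 1.5-fold and its mean level was at least 10 CPM, a limit that Atf3, Atf5 and Trib3 did not reach over all cells. Of the 5 members read, Atf4 and Ddit3 were called lower and none higher, against 18.3% of 8644 genes lower and 10.8% higher. Under TMM the calls over all genes changed to 11.0% lower and 18.7% higher, and no member was called. Among progenitor-labelled cells 1 of 4 members read, Ddit4, was called lower, against 23.7% lower and 14.4% higher of all genes. With so few members these shares describe the libraries and single out no gene.

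Within clusters the calls were read the same way. In HSC-1, Atf4 was called lower (5.48% of all genes lower, 4.96% higher). HSC-2 and LP had no member called, where 2.77% and 10.7% of genes were lower and 1.67% and 8.90% higher. In HSC-3, Atf4 and Ddit3 were called lower and Ddit4 higher (8.77% and 5.77%). DCP had Ddit3 lower and Sesn2 and Ddit4 higher, on a background of 32.5% lower and 13.7% higher. Ddit4 was called lower in MEP (13.5% lower, 7.46% higher). MP had Atf4, Ddit3 and Atf3 lower and Ddit4 higher, where 29.7% of all genes were lower and 8.03% higher.

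The share of cells with a UMI depends on depth, and spleen cells were deeper. As deposited, 66.1% of bone marrow and 63.9% of spleen cells had an Atf4 UMI. After thinning to 3700 UMIs per cell, 48.0% and 33.8% did. Thinning left out 1007 bone marrow cells, 824 of them HSC-1, and 672 spleen cells. Of the latter 420 were MCP, out of 553 cells in the cluster with the highest Ddit3 and Ddit4 levels in spleen. For Ddit3 the shares were 22.9% and 21.5% as deposited and 13.7% and 7.37% thinned, and for Trib3 6.37% and 2.58%, then 3.95% and 0.902%. Cebpg changed from 26.0% and 37.8% to 15.4% in each library, and Sesn2 from 7.83% and 10.6% to 4.48% and 3.54%. Ddit4 read 16.1% and 26.4%, then 10.1% and 12.8%, and Atf3 0.971% and 8.63%, then 0.617% and 4.32%. Atf5 gave 4.16% and 5.09%, then 2.17% and 1.60%. None of the cell types here is known to lack these genes, so no background share from free RNA could be set beside them.

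Cells with and without a Ddit3 UMI were compared for the other members. Among thinned bone marrow HSC-1 cells, 634 with a Ddit3 UMI had Atf4 at 222 CPM and 3591 without had 205 CPM, a ratio of 1.08 (0.984 to 1.19) where the median gene had 1.00. Their Trib3 levels were 17.1 and 14.2 CPM, a ratio of 1.20 (0.830 to 1.69). Ddit4 was at 28.1 CPM in cells with a Ddit3 UMI and 41.1 in those without, a ratio of 0.685 (0.522 to 0.885), the only one of the 7 other members whose interval left out 1 there. The sparse members had wide intervals, with Atf5 at 1.70 (0.944 to 2.92) and Atf3 at 3.24 (0.695 to 12.7). In bone marrow HSC-2 the Ddit4 ratio was 1.15 (0.636 to 1.94). When bone marrow HSC-1 was split by Trib3 instead, Ddit4 was at 53.8 CPM in 221 cells with a Trib3 UMI and 38.3 in 4004 without, a ratio of 1.40 (1.01 to 1.91). Of the sums split by Ddit3, spleen LP had the highest Atf4 ratio, 1.58 (1.02 to 2.35), from 59 cells with a Ddit3 UMI. There 10.7% of 8259 genes had a ratio at least as high. The lowest Atf4 ratio was that of bone marrow LP, at 0.873 (0.623 to 1.20). At these depths a cell without a UMI may still express the gene.

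Over the 15 sums of library and cluster, which share library, depth and composition and are no replicates, Pearson's r between Atf4 and Ddit3 was 0.63 and Spearman's rho 0.71. For Atf4 and Trib3 they were 0.63 and 0.65, and for Atf5 and Trib3 0.78 and 0.54. Ddit4 had an r of 0.03 (rho 0.13) with Ddit3 and of -0.32 (rho -0.39) with Atf4. Among 6576 genes averaging 20 CPM or more, those most like Ddit3 across the sums were Ipo8, Eif5, Pofut1, Vps37b and Spred1 (r from 0.90 to 0.92). Those most like Atf4 were Rab3gap2, Pet100, Ranbp2, Rela and March6 (0.81 to 0.84), and those most like Ddit4 were Cblb, Evi2a, Rad51d, Chfr and Prex1 (0.90 to 0.93).

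In all 16634 cells the authors' deposited ER stress score equalled a further deposited column, named for the Gene Ontology term response to endoplasmic reticulum stress. The list of genes behind it is not given in the sources used here. The score ran the other way from Atf4, Ddit3 and Trib3 between the libraries. Its mean over cells was 0.0743 in bone marrow and 0.114 in spleen. Bone marrow clusters with at least 100 cells lay between 0.0687 and 0.0896, and all 8 spleen clusters lay above them, between 0.0930 and 0.144. Median depth per cell also differed, so no correlation across both libraries is given. Within the spleen, MEP had the highest score and an Atf4 level of 135 CPM, and MP the next highest with 105 CPM.

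**Figure D4:**
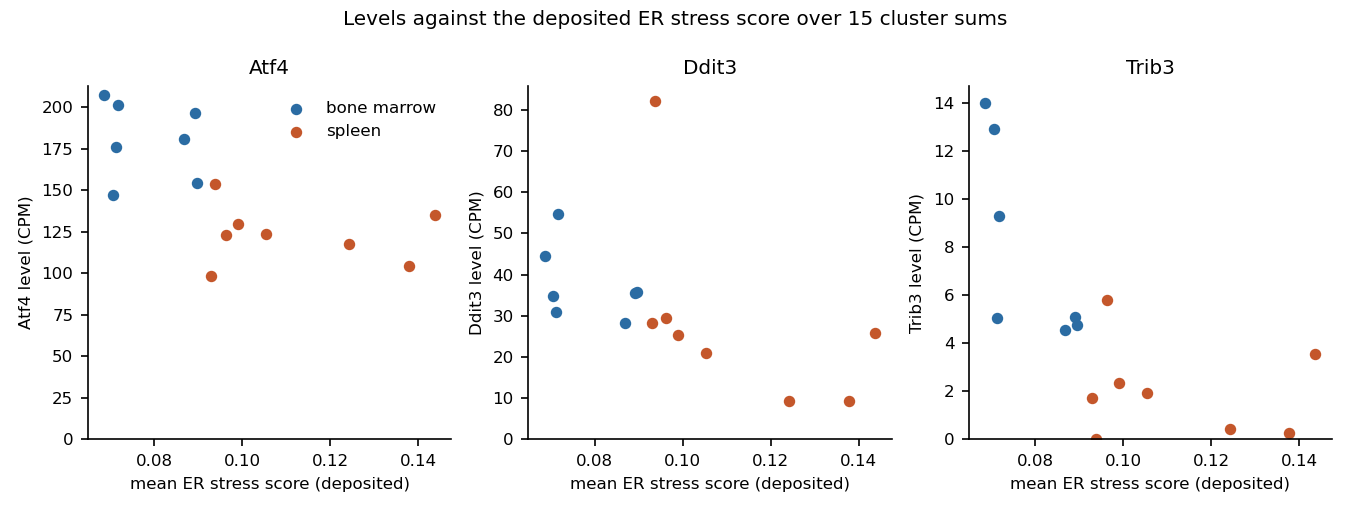
Level in CPM of Atf4, Ddit3 and Trib3 (vertical, linear, from 0) against the mean deposited ER stress score (horizontal, no unit), each point a cluster of at least 100 cells, bone marrow in blue and spleen in orange. The spleen points have scores of 0.0930 to 0.144, above every bone marrow point, and Atf4 levels mostly below the bone marrow points.

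The genes above and beside the members did not all share their direction. Eif2ak3, which encodes PERK and is named because the series title names it, was at 9.56 CPM in bone marrow (8.87 to 10.3) and 9.18 in spleen (8.55 to 9.84), a ratio of 0.960 (0.866 to 1.06). Of 11 eIF2 alpha kinases, phosphatase subunits and eIF2B subunits read, 4 were at least 1.5-fold higher in spleen, led by Eif2b3 (27.7 and 51.2 CPM) and Eif2b2 (43.4 and 74.3), and the counts were the same among progenitor-labelled cells. The only lower one was Ppp1r15a, which encodes GADD34, the subunit that ends the response and that CHOP induces. It was at 142 CPM in bone marrow and 67.9 in spleen, and it also stands on the list of targets below.

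Of 33 other ATF4 and CHOP targets read, 6 were at least 1.5-fold higher in spleen and 5 lower (11 and 7 among progenitor-labelled cells), with a median log2 ratio of 0.16 against -0.11 over all genes. Asns, the asparagine synthetase gene, was at 12.1 CPM in bone marrow and 66.2 in spleen, and Mthfd2, a mitochondrial folate enzyme, at 16.7 and 41.1 CPM. Vldlr was at 45.9 and 7.30 CPM, and the cell-cycle inhibitor gene Cdkn1a at 41.4 and 16.4 CPM. Among progenitor-labelled cells Asns stood at 12.3 and 107 CPM. Asns and Mthfd2 were therefore higher, and Ppp1r15a lower, in the library where Atf4 and Ddit3 RNA were lower.

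Other lists that bear on the members gave the following counts. For these and the other lists named here, the shares over all genes were 10.8% higher and 18.3% lower in spleen. Among progenitor-labelled cells they were 14.4% and 23.7%, and under TMM over all cells 18.7% and 11.0%. Of 16 immediate early genes, which are also induced by handling of tissue, 3 were higher and 6 lower in spleen, and among progenitor-labelled cells 0 were higher and 13 lower, so most lay lower together with Atf4 and Ddit3 there. Their part in the result was not tested. Of 8 glucocorticoid-induced genes, which bear on Ddit4, 0 were higher and 5 lower (7 lower among progenitor-labelled cells), such as Klf9 at 108 and 45.5 CPM. Of 12 hypoxia-induced genes 1 was higher and 6 lower (3 and 6 among progenitor-labelled cells), with Bnip3 at 19.6 and 8.89 CPM. Of 9 p53-induced genes 2 were higher and 2 lower (2 and 3 among progenitor-labelled cells). Of 17 mTORC1 regulators around Sesn2 and Ddit4, 0 were higher and 5 lower (2 and 6 of 19 read among progenitor-labelled cells), with Txnip at 492 and 213 CPM. Of 12 mitochondrial stress genes tied to Atf5, 3 were higher and 0 lower (7 and 0 among progenitor-labelled cells), including the chaperone genes Hspd1 (225 and 546 CPM) and Hspe1 (320 and 718).

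The relatives of the members also differed from them. Of 23 other bZIP genes read, 2 were higher and 9 lower in spleen (0 and 11 of 22 read among progenitor-labelled cells). Batf3, a dendritic cell factor, was at 1.55 and 61.0 CPM, and the stem cell factor Hlf at 413 and 71.1 CPM. Against the even Cebpg, 3 other C/EBP genes were lower in spleen: Cebpa with a ratio of 0.337 (0.311 to 0.365), Cebpb with 0.548 (0.521 to 0.577) and Cebpd with 0.258 (0.231 to 0.287). Atf2 and Atf7 had ratios of 0.746 and 0.628, and Atf6 of 1.02, though Atf6 stood at 36.2 and 22.6 CPM among progenitor-labelled cells. Sesn1 and Sesn3, the relatives of Sesn2, read 0.436 (0.415 to 0.458) and 0.529 (0.500 to 0.560). Trib1 and Trib2, the relatives of Trib3, read 1.11 (1.03 to 1.20) and 1.39 (1.25 to 1.56), though Trib1 stood at 14.7 and 4.46 CPM among progenitor-labelled cells. Ddit4l had 5 UMIs in each library. TMM multiplies every all-cell ratio by 1.16 and turned none of the relatives named here to the other side of 1.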

How the data were processed

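LSK cells of bone marrow and spleen, 1 library each, were read from the deposited tables. The unit of the count tables is UMI counts per gene and cell, as deposited by the authors with no normalization; per the series design text reads were aligned to mm10 and counted with Cell Ranger 3.1.0 at about 27000 reads per cell. Per the submitters' processing notes Seurat 3.1.5 was used, and those notes name mm9 instead of mm10. Clusters, reference labels and the ER stress score (unit: score) are the authors' deposited columns; how the score was made is not given in the sources used here. No source used here says how cells were filtered or doublets handled; every deposited cell was kept and no doublet caller was run.

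The members and gene lists were chosen with earlier results of these data known. Symbols and coordinates come from GENCODE M21 (mm10), which paired 31011 of 31053 identifiers. Counts were summed per library and cluster and divided by the total UMIs (CPM). Poisson, binomial-ratio and Clopper-Pearson intervals are exact at 95%. For 0 UMIs the printed limit is the level that 3 would give. Calls of size used a pseudocount of 1 CPM, 1.5-fold and a mean of at least 10 CPM; within clusters at least 100 cells per library were required. Besides the members, the 2 highest and 2 lowest genes of each list, the members' relatives and the 5 genes most like Atf4, Ddit3 and Ddit4 are named; Eif2ak3 and the overlapping genes were added. The calculations were tested on simulated counts with known fold changes. Python 3.11.15, numpy 2.4.6, scipy 1.17.1, pandas 2.3.3 and edgeR 4.0.16 (for TMM) were used. Depth was 73740963 UMIs in bone marrow and 85937174 in spleen. The alternatives were TMM and median-of-ratios scaling, equal weight of cells or of clusters, cells thinned to 3700 UMIs, other pseudocounts and level limits, and leaving out cells of other labels, the 5% of cells with most UMIs, or MEP. The integrated matrix was not used here.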

Additional observations from a re-analysis of the deposited data

Results flagged for a closer look

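For 4 members the ratio of spleen to bone marrow had its interval above 1 in a cluster and below 1 in another, which sets those clusters apart; the difference between clusters was not tested, since each tissue has 1 library. Atf3 had its highest ratio in HSC-1 (15.9) and its lowest in MEP (0.276). Ddit4 was highest in DCP (2.49) and lowest in MEP (0.347). For Sesn2 the extremes were DCP (2.01) and LP (0.654). For Cebpg the intervals that left out 1 were those of HSC-2 (1.14) and MEP (0.838), though its ratios reached further in DCP and MP, where the intervals held 1. The share of spleen cells with a label of another cell type was 30.0% in HSC-1, 84.8% in DCP and 82.7% in LP, against 12.3% in HSC-2 and 1.12% in MEP. Without such cells DCP, with only 46 spleen cells left, read 0.940 (0.407 to 1.93) for Ddit4 and 1.05 (0.359 to 2.56) for Sesn2. The part of this share was not tested beyond the values without such cells.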

How the results depend on the processing

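The all-cell ratios of Atf4 and Ddit3 stayed below 1 under each alternative run. For Atf4 and Ddit3 in turn, the ratio was 0.749 and 0.664 with TMM, 0.755 and 0.669 with median-of-ratios scaling, 0.623 and 0.744 with each cell weighted alike, 0.604 and 0.519 in thinned cells, 0.695 and 0.663 without other labels, and 0.605 and 0.531 without MEP; with clusters weighted alike Ddit3 read 0.666. The count of members at least 1.5-fold lower changed from 2 to 0 with TMM or median-of-ratios scaling, and to 1 with each cell alike, with clusters weighted alike or without other labels; the count higher changed from 0 to 2 without MEP and to 1 with no minimum level, where 3 of 8 were lower. Trib3, Atf5 and Sesn2 stayed below 1 in all 10 alternatives, while Cebpg lay between 0.852 and 1.08 and Ddit4 between 0.500 and 1.77. Atf3 turned to 0.867 with clusters weighted alike and to 0.801 without other labels. Without other labels it turned to 0.991 in HSC-1 and 0.939 in HSC-3, in thinned cells to 0.752 in HSC-2 and 0.542 in LP, and without the deepest 5% of cells to 0.529 and 0.853 there, from few UMIs. Sesn2 in DCP turned to 0.997 in thinned cells, and Ddit4 in HSC-3 to 0.861 without other labels. Thinned values leave out 420 of the 553 spleen MCP cells, the sum with the highest Ddit3 level. The causes were not tested. No paired analysis was possible because each tissue has 1 library, and for the same reason no replicate could be left out. Depth limits Trib3, Atf3 and Atf5 most, with a few UMIs in several sums, and no interval covers the spread between mice.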
